A study of Homo sapiens with 20 samples.

Results

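The small (40S) subunit of the ribosome carries a set of ribosomal proteins wrapped round the 18S ribosomal RNA, and 35 of the 20401 genes in the Ribo-seq count tables encode these proteins or carry their names. They were chosen by symbol: RPSA, FAU, and every symbol made of RPS and a digit, with the RPS6 kinases, RPS19BP1 and the Y-linked RPS4Y genes left out. Of the 35, 33 are single ribosomal protein genes, 14 whose proteins sit in the head of the subunit and 19 in its body. The other two are RPS10-NUDT3, a readthrough of neighbouring genes, and RPS27AP5, named as a pseudogene. The cells were K562, a human leukaemia line with erythroid potential, either with an exon of NAT10 removed by CRISPR-Cas9 (knockout) or parental (wild type). The sources used here do not say whether the knockout was 1 clone. RNA-seq and Ribo-seq had 2 libraries per genotype, and immunoprecipitation with an antibody to N4-acetylcytidine (ac4C) or with IgG had 2 libraries each per genotype, deposited as merged peak lists. No label tells whether libraries of a group were grown separately. The p-values therefore take in only the variation among libraries, which may be technical.

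The head of the 40S subunit holds proteins round the entry and exit of mRNA and tRNA, and the body holds the shoulder and the platform that carry the head. NAT10 acetylates cytidines of the 18S ribosomal RNA as well as tRNA, and is itself required for making the small subunit. Most mRNAs of ribosomal proteins begin with a C followed by a run of C and U, the 5′ terminal oligopyrimidine (TOP) tract, through which mTORC1 and the RNA-binding protein LARP1 control their translation. Too little of several of these proteins, RPS19 among them, causes Diamond-Blackfan anaemia, a failure of red cell production.

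The tract lies at the start of a transcript, so the annotated starts of the genes the results turn on are printed here from RefSeq (GRCh38.p14). Each line gives 10 bases before the annotated start and 20 from it on. Capitals mark the unbroken run of C and T that begins with a C at the start. RPS27L, a close relative of RPS27, and RPS26 have no such run at the annotated base and stand for the genes without a match. In RPS26 a run of T and C begins shortly after that base.
RPS6 (chr9:19380217-19380246, minus strand): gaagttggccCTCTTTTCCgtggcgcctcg
RPS13 (chr11:17077648-17077677, minus strand): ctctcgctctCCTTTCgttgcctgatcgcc
RPS9 (chr19:54200848-54200877, plus strand): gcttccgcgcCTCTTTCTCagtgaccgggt
RPS19 (chr19:41860245-41860274, plus strand): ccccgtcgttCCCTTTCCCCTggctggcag
RPS23 (chr5:82278335-82278364, minus strand): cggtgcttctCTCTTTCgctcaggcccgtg
RPS27 (chr1:153990752-153990781, plus strand): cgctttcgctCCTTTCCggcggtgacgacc
RPS27L (chr15:63157458-63157487, minus strand): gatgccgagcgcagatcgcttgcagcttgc
RPS26 (chr12:56041908-56041937, plus strand): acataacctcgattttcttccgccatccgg

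The search asked for a C at the annotated start followed directly by at least 4 bases that are each C or T, on the transcribed strand only. Of the 26 genes with a promoter in the RefSeq table, 19 had such a start at one or more promoters (73.1%), against 5.14% of all 27305 genes in the table. The share was 73.7% of the 38 large subunit protein genes matched. RPS19 has a further annotated start without the tract. A match describes the letters at the annotated start and not the start used in K562 cells. A gene without a match can still have a pyrimidine run close by, as RPS26 has, so those without it may include tract genes.

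RNA-seq libraries held 18093324 and 18778485 counts in knockout cells, against 10388717 and 12725302 in wild type cells. Ribo-seq libraries held 1173526 and 621287 counts in knockout, against 1220308 and 911336 in wild type. The knockout RNA-seq pair differed by little more than counting noise (chi-square per degree of freedom 1.03, against 12.5 for the wild type pair) and was counted as 1 sample, its counts summed. Erythroid markers were present in every RNA-seq library: GATA1 was at 277 and 267 CPM (counts scaled to a library's total) in knockout, against 362 and 368 in wild type, while the T cell gene CD3E was between 1.17 and 2.36 CPM in all 4. NAT10 RNA was 49.9 and 49.3 CPM in knockout, against 139 and 144 CPM in wild type, and its footprints were 55.4 and 48.3 CPM in knockout, against 176 and 188 CPM in wild type. NAT10 fell in both (log2 fold change -1.51, SE 0.085, edgeR quasi-likelihood adjusted p = 0.000102 in RNA, and -1.82, SE 0.19, adjusted p = 0.000334 in footprints). The counts run over the whole gene, so they do not measure the deleted exon.

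Small subunit genes made up a smaller share of RNA counts and a larger share of footprints in the knockout. They held 2.01% and 2.00% of RNA counts in knockout, against 2.28% and 2.45% in wild type. Of footprints they held 2.54% and 2.28% in knockout, against 2.24% and 1.95% in wild type. Neither pair of shares overlapped, although the knockout's lower footprint share, 2.28%, stood close to the wild type's higher one, 2.24%. Within each genotype the deeper Ribo-seq library had the higher share, and the knockout RNA-seq libraries were the deeper ones. The part that depth plays in these shares was not tested. In bulk RNA, counts are relative to the whole library, so a share does not tell the amount per cell.

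In RNA, RPS6, RPS13 and RPS9 fell in the knockout and RPS27L rose. All 4 encode proteins of the body of the subunit. RPS6, the protein that S6 kinases phosphorylate downstream of mTORC1, was at 496 and 487 CPM in knockout, against 1107 and 1131 CPM in wild type. Both knockout libraries were below both wild type libraries, and the log2 fold change was -1.18 (SE 0.10, edgeR adjusted p = 0.000591). RPS13, which binds the central domain of the 18S RNA, was at 346 and 340 CPM in knockout, against 538 and 620 CPM in wild type. Its log2 fold change was -0.76 (SE 0.13, edgeR adjusted p = 0.00765), and the wild type libraries differed from each other more than the knockout libraries did. RPS9, one of the first proteins to bind the 18S RNA, was at 596 and 582 CPM in knockout, against 860 and 846 CPM in wild type (log2 fold change -0.53, SE 0.095, edgeR adjusted p = 0.0101). RPS27L, a relative of RPS27, was at 46.4 and 47.4 CPM in knockout, against 35.4 and 34.0 CPM in wild type. It rose (log2 fold change 0.44, SE 0.10, edgeR adjusted p = 0.0258), a call that DESeq2 did not make (adjusted p = 0.239).

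These 4 of 34 genes tested compare with 14.0% of all 16277 genes tested that changed in RNA. Of all genes 5.17% rose and 8.79% fell, and of the small subunit genes 1 rose and 3 fell, so the share called was no larger than the background. Most values lay slightly below 0. Of the 34, 27 had a log2 fold change below 0 and 7 above it, with a median of -0.19, against a median of -0.0006 over all genes. The size rests on the wild type libraries: the median was -0.30 when wild type replicate 1 was left out and -0.08 when replicate 2 was. With the knockout libraries kept apart as 2 samples, 17 were called, 15 of them lower in the knockout, and the share over all genes was then 34.1%.

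Genes of the head and of the body were compared by their counts. With the knockout pair summed and low counts filtered, none of the 14 head genes was called in RNA by edgeR or DESeq2. Their median log2 fold change was -0.14, with 10 below 0. In the body, 1 of 19 rose and 3 fell by edgeR, with a median of -0.24 and 16 below 0. Of all genes tested 14.0% were called. An unadjusted edgeR p under 0.05 was found for 1 of the 14 head genes and 12 of the 19 body genes. Of all 34 small subunit genes tested it was 14 (41.2%), against 28.9% of all genes tested. RPS20, a head protein, was lowest in the head (-0.26, SE 0.12). The difference between head and body was not tested.

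**Figure D1:**
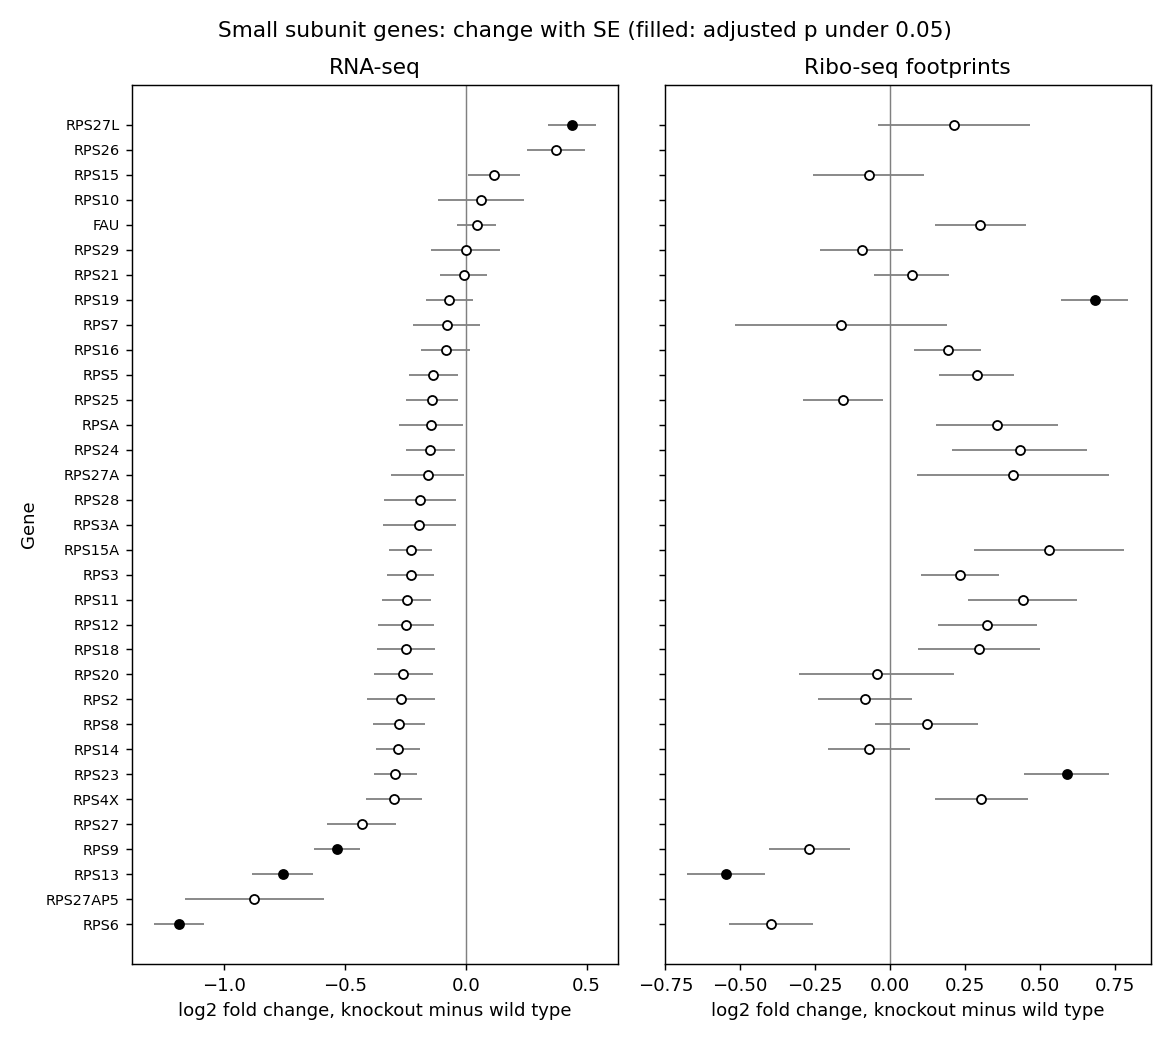
Log2 fold change (knockout minus wild type) of the small subunit genes in RNA (left) and in footprints (right), with bars of 1 SE, sorted by the RNA change. Filled points passed an adjusted p of 0.05; 27 genes lie below 0 in RNA and 17 above 0 in footprints, and genes with no point on the right had too few footprints to be tested.

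The RNA of other genes named for their biology was not called by edgeR with the knockout pair summed and low counts filtered. RPS19, the most often mutated gene of Diamond-Blackfan anaemia, was at 1364 and 1338 CPM in knockout, against 1450 and 1389 CPM in wild type (log2 fold change -0.07, SE 0.096, adjusted p = 0.695). Its sign turned to 0.0045 without a filter on low counts. RPS14, the small subunit gene of the commonly deleted region of the 5q- syndrome, was at 510.3 and 504.3 CPM in knockout, against 632 and 602 CPM in wild type. It missed the threshold (log2 fold change -0.28, SE 0.091, edgeR adjusted p = 0.0843). RPS3, which lies at the mRNA entry and also acts in DNA repair, was at 1362 and 1369 CPM in knockout, against 1643 and 1563 CPM in wild type (log2 fold change -0.23, SE 0.097, edgeR adjusted p = 0.168). RPS27 was at 244 and 249 CPM in knockout, against 297 and 367 CPM in wild type (log2 fold change -0.43, SE 0.14, edgeR adjusted p = 0.0897). Without a filter on low counts RPS27 passed (adjusted p = 0.00192). With the knockout libraries kept apart, RPS27 passed (adjusted p = 0.0141), as did RPS14 (adjusted p = 0.00185) and RPS3 (adjusted p = 0.00457).

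Members made with a fused partner, or with roles outside the ribosome, did not pass in RNA either. RPS27A, made as a fusion with ubiquitin, was at 485.3 and 485.0 CPM in knockout, against 480.0 and 601 CPM in wild type (log2 fold change -0.16, SE 0.15, edgeR adjusted p = 0.544). FAU, made as a fusion with a ubiquitin-like protein, was at 287 and 279 CPM in knockout, against 282 and 267 CPM in wild type (log2 fold change 0.05, SE 0.081, edgeR adjusted p = 0.764). RPSA, also known as the laminin receptor, was at 512 and 501 CPM in knockout, against 511 and 607 CPM in wild type (log2 fold change -0.14, SE 0.13, edgeR adjusted p = 0.532). The genotypes overlapped in all 3 genes, and without wild type replicate 2 the log2 fold change of RPS27A was 0.0486 and that of RPSA 0.0202. RPS27AP5 was at 2.65 and 2.82 CPM in knockout, against 4.33 and 5.66 CPM in wild type, and its edgeR adjusted p was 0.0877.

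Footprints showed another set of genes. RPS19 and RPS23 rose and RPS13 fell in the knockout. RPS19 footprints were 3180 and 3319 CPM in knockout, against 2105 and 1850 CPM in wild type, the highest footprint level of all small subunit genes in both knockout libraries. The log2 fold change was 0.68 (SE 0.11, edgeR adjusted p = 0.0049), and it passed whichever Ribo-seq library was left out. RPS23, which sits at the decoding centre and sets the accuracy of translation, had 1017 and 916 CPM of footprints in knockout, against 690 and 565 CPM in wild type (log2 fold change 0.59, SE 0.14, edgeR adjusted p = 0.0321). Without wild type replicate 2 its adjusted p was 0.22. RPS23 RNA was at 364 and 367 CPM in knockout, against 453 and 443 CPM in wild type, and did not pass (log2 fold change -0.29, SE 0.089, edgeR adjusted p = 0.0687). RPS13 footprints were 727 and 644 CPM in knockout, against 1002 and 961 CPM in wild type (log2 fold change -0.55, SE 0.13, edgeR adjusted p = 0.0307). Its call was lost without knockout replicate 2 (adjusted p = 0.0574), and without either wild type library (0.152 without replicate 1, 0.0785 without replicate 2), while the fold stayed between -0.58 and -0.47 in these 3 fits.

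These 3 of 27 genes tested compare with 5.34% of all 8887 genes tested that changed in footprints. Of all genes 1.47% rose and 3.87% fell. Of the 27, 17 had a log2 fold change above 0 and 10 below it, with a median of 0.21, against 0.0047 over all genes. The median was 0.08 without knockout replicate 1, 0.33 without wild type replicate 1 and 0.12 with wild type replicate 2 left out. The number called moved as single libraries were left out, and the share of all genes called moved as well. In the head 1 of 11 genes rose, with a median of 0.23, and in the body 1 of 16 rose and 1 fell, with a median of 0.17.

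Of the 4 genes that changed in RNA, RPS13 passed in footprints, and the other genes did not in the same edgeR fit. RPS6 footprints were 606 and 634 CPM in knockout, against 871 and 721 CPM in wild type (log2 fold change -0.40, SE 0.14, edgeR adjusted p = 0.126). RPS9 footprints were 461 and 451 CPM in knockout, against 533 and 542 CPM in wild type (log2 fold change -0.27, SE 0.13, edgeR adjusted p = 0.278). In both genes the knockout libraries lay below the wild type libraries. RPS27L footprints were 86.1 and 67.6 CPM in knockout, against 80.3 and 49.4 CPM in wild type, so the genotypes overlapped (log2 fold change 0.21, SE 0.25, edgeR adjusted p = 0.676).

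**Figure D2:**
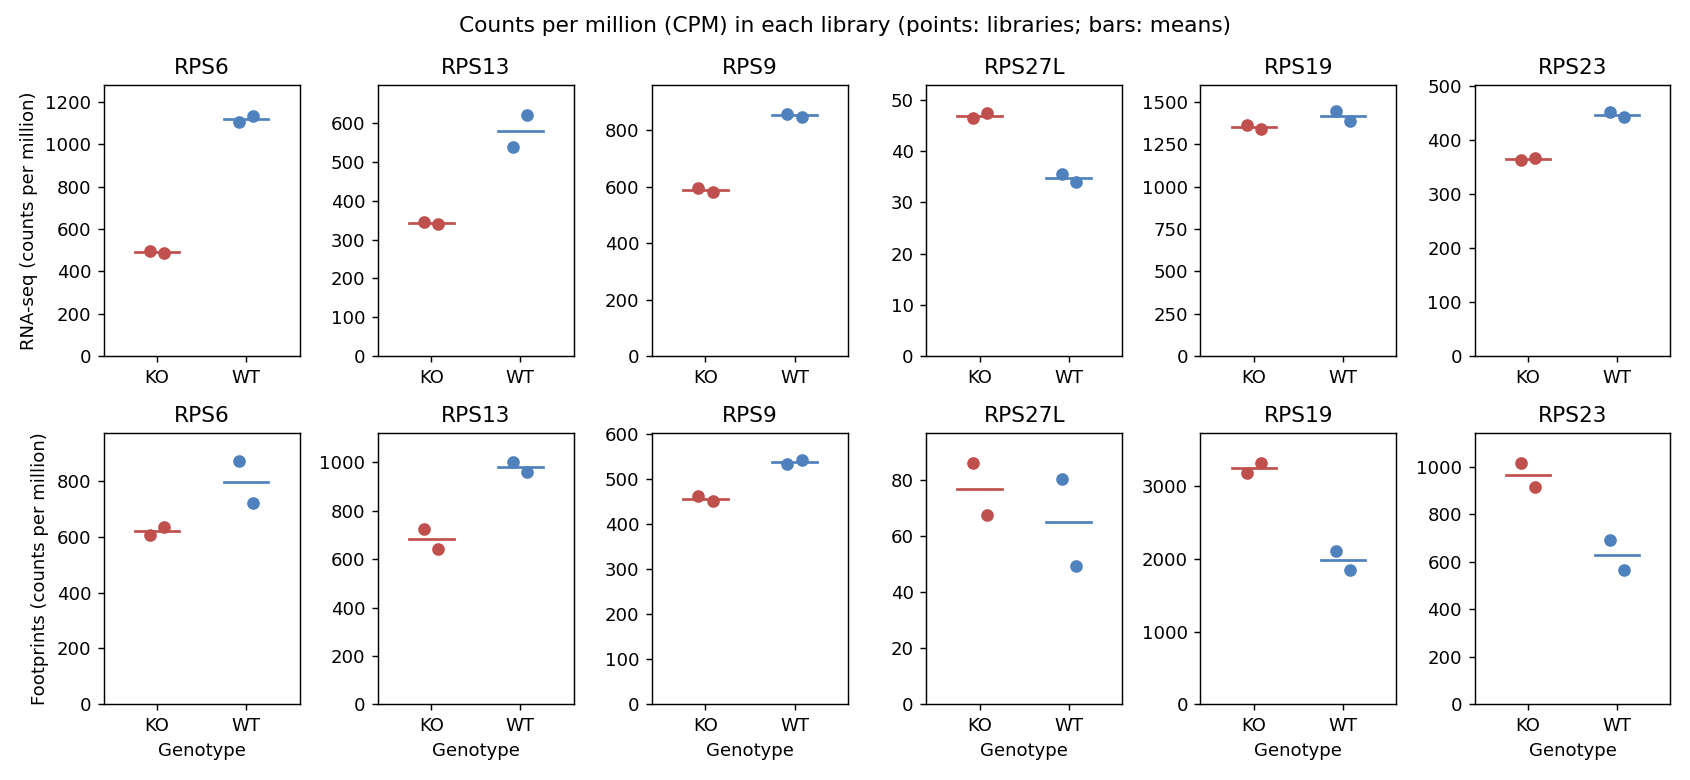
RNA-seq (top) and footprint (bottom) levels in CPM in each library for the 6 genes that changed in one or both of these measures; points are libraries, bars are means, and every axis starts at 0. RPS6, RPS13 and RPS9 are lower in both knockout libraries in RNA and in footprints, while RPS19 and RPS23 are higher in both knockout libraries in footprints and lower in both in RNA.

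The remaining named genes were not called in footprints by edgeR with all 4 Ribo-seq libraries and no block. RPS3 had 1382 and 1156 CPM of footprints in knockout, against 1069 and 1044 CPM in wild type (adjusted p = 0.324). RPS14 had 893 and 1103 CPM in knockout, against 989 and 1056 CPM in wild type, with overlapping genotypes (adjusted p = 0.816). FAU had 1064 and 872 CPM in knockout, against 857 and 680 CPM in wild type (adjusted p = 0.281). RPS27A had 131 and 49.9 CPM in knockout, against 75.4 and 65.8 CPM in wild type, so the knockout libraries lay on both sides of the wild type ones. Its log2 fold change was 0.41 (SE 0.32), -0.53 without knockout replicate 1 and 0.85 without knockout replicate 2, where it passed (edgeR adjusted p = 0.0109). RPSA had 130 and 175 CPM in knockout, against 129 and 97.7 CPM in wild type (log2 fold change 0.36, SE 0.20, edgeR adjusted p = 0.337).

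Translation efficiency, the footprint change over the RNA change, lay above 0 for most small subunit genes, but none was called by edgeR. The test was the assay-by-genotype term of a single model over both kinds of library. Of 27 genes tested 22 lay above 0 and 5 below it, or 81.5% above 0 against 44.4% of all 8821 genes tested. The median was 0.35 on the log2 scale, against -0.05 over all genes. At an unadjusted p under 0.05 there were 9, all above 0, or 33.3% against 9.94% of all genes, and DESeq2 called 3. Over all genes DESeq2 called 12 (0.136%) and edgeR called 1 (0.0113%), TEDC2, which is no ribosomal gene and was lower in the knockout.

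RPS23 had the highest value, 0.84 (SE 0.18, edgeR adjusted p = 0.268), followed by RPS6 at 0.74 (SE 0.18, adjusted p = 0.33) and RPS19 at 0.70 (SE 0.15, adjusted p = 0.268). These are the 3 genes that DESeq2 called, with adjusted p of 0.0125 for RPS23, 0.0373 for RPS6 and 0.000932 for RPS19. They also passed edgeR with the knockout RNA-seq libraries kept apart. For RPS6 the value joins an RNA level 0.44 times that of wild type with a footprint level 0.76 times that of wild type. RPS13, which was lower in both assays, had 0.16 (SE 0.19), so its footprint and RNA changes were of like size. RPS27L was the lowest, at -0.27 (SE 0.26), and stood at 0.28 without wild type Ribo-seq replicate 1. RPS3 had 0.42 (SE 0.17), RPSA 0.44 (SE 0.26), RPS14 0.16 (SE 0.18) and FAU 0.21 (SE 0.20), none of them called by edgeR. The median lay between 0.27 and 0.59 as single libraries were left out, over genes of the 27 tested in the fit reported. Over all genes tested it lay between -0.05 and 0.09 in the same fits. Both medians were highest without wild type Ribo-seq replicate 1.

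The genes with a tract at the annotated start and those without it were set side by side as a description. Of 16 genes tested with the tract, 15 had an efficiency value above 0, with a median of 0.43. Of 5 tested without it 1 was above 0, with a median of -0.14. Over all genes tested, the 584 with such a start had a median of 0.07 and the 6744 without it -0.06. In RNA the 19 with the tract had a median of -0.19 and the 7 without it 0.0003, and over all genes the medians were -0.12 with it and 0.01 without it. In footprints the 16 with the tract had a median of 0.27 and the 5 without it -0.07, while over all genes the medians were -0.02 with it and 0.0077 without it. The all-gene groups include the small subunit genes.

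Genes of the same pathway gave a frame for these values. The 47 large subunit proteins had an RNA median of -0.22, with 5 lower and none higher by edgeR, among them RPL27A (-0.88), RPL3 (-0.76) and RPLP2 (-0.65). In footprints 43 were tested, with a median of 0.21, and RPL35A (0.60) and RPL41 (1.42) rose while RPLP2 (-0.83) fell. Their efficiency median was 0.39, and 40 of 43 lay above 0, with RPL3 lowest in adjusted p (1.05, edgeR adjusted p = 0.268). RPL41 had 1.53 and RPL35A 0.70, neither called by edgeR. Of the 43, 13 had an unadjusted p under 0.05, and DESeq2 called RPL3 and RPL35A. The small subunit medians were -0.19 in RNA, 0.21 in footprints and 0.35 in efficiency, and the difference between the subunits was not tested.

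Other mRNAs known to carry a TOP tract also had an RNA median below 0 and an efficiency median above 0. Of 20 tested in RNA, 7 fell and none rose by edgeR, with a median of -0.30: EIF3F (-1.001) and EIF3L (-0.71), subunits of an initiation factor, and EEF2 (-0.67), the translocation factor of elongation. In footprints 2 of 18 rose, NAP1L1 (0.78), a histone chaperone, and EEF1B2 (0.81), an exchange factor of elongation, and EEF1G (0.53, adjusted p = 0.0508) missed the threshold. Their footprint median was only 0.04, with 11 of 18 above 0, against 0.0047 over all genes. An efficiency value takes in the RNA change with its sign reversed, so the RNA and efficiency medians are not separate results. Their efficiency median was 0.53, with 16 of 17 above 0, and included NAP1L1 (0.87), EEF2 (0.55) and PABPC1 (0.58). None was called by edgeR, 9 had an unadjusted p under 0.05, and DESeq2 called NAP1L1. Of the 15 with a RefSeq promoter, 73.3% had the tract.

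Initiation factors that load on the 40S subunit had medians nearer 0. Of 27 tested in RNA 9 fell, with a median of -0.10, EIF3F, EIF3M (-0.73) and EIF3L lowest in adjusted p. None of 25 was called in footprints by edgeR or DESeq2, and 3 had an unadjusted p under 0.05 (EIF3M had an adjusted p of 0.0531, and ABCE1 and EIF3F 0.191 and 0.198). Their efficiency median was 0.12, with 18 of 25 above 0, and EIF3E (0.66), EIF3A (0.57) and EIF3H (0.58) had the lowest adjusted p. None was called by either tool, and 5 had an unadjusted p under 0.05. EIF3E, EIF3F, EIF3H, EIF3L, EIF4B and RACK1 stand in both this list and the TOP list.

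Factors that assemble the 40S subunit had an RNA median of 0.09, and of 51 tested 7 rose and 3 fell. NOB1, the nuclease that makes the 3′ end of 18S RNA, fell by 0.49 on the log2 scale, and KRR1 (0.43) and EMG1 (0.47), which act in the early precursor, rose. DESeq2 called NOB1 and none of the genes that rose. In footprints RCL1 (0.90) rose, LTV1 (0.76) and NOL10 (0.62) did not pass, and the median was 0.07. Their efficiency median was 0.01, with WDR43 (-0.61), IMP3 (-0.41) and NOP56 (-0.38) lowest in adjusted p. None was called by either tool, and these 3 had an unadjusted p under 0.05.

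Genes through which mTORC1 reaches TOP mRNAs, and kinases of the S6 and RSK families, had an RNA median of 0.18. Of 15, 3 rose and 1 fell: LARP1 (0.36) and MLST8 (0.26) rose and the RSK gene RPS6KA1 (-0.61) fell. In footprints RPS6KA1 (-0.93) fell, LARP1 had 0.53 (edgeR adjusted p = 0.0938) and RPTOR 0.32 (adjusted p = 0.299), with a median of 0.10. Their efficiency median was 0.02, and EIF4EBP1 (-0.33), RPS6KA1 (-0.35) and RHEB (-0.28) had the lowest adjusted p. None was called by either tool, and none had an unadjusted p under 0.05.

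**Figure D3:**
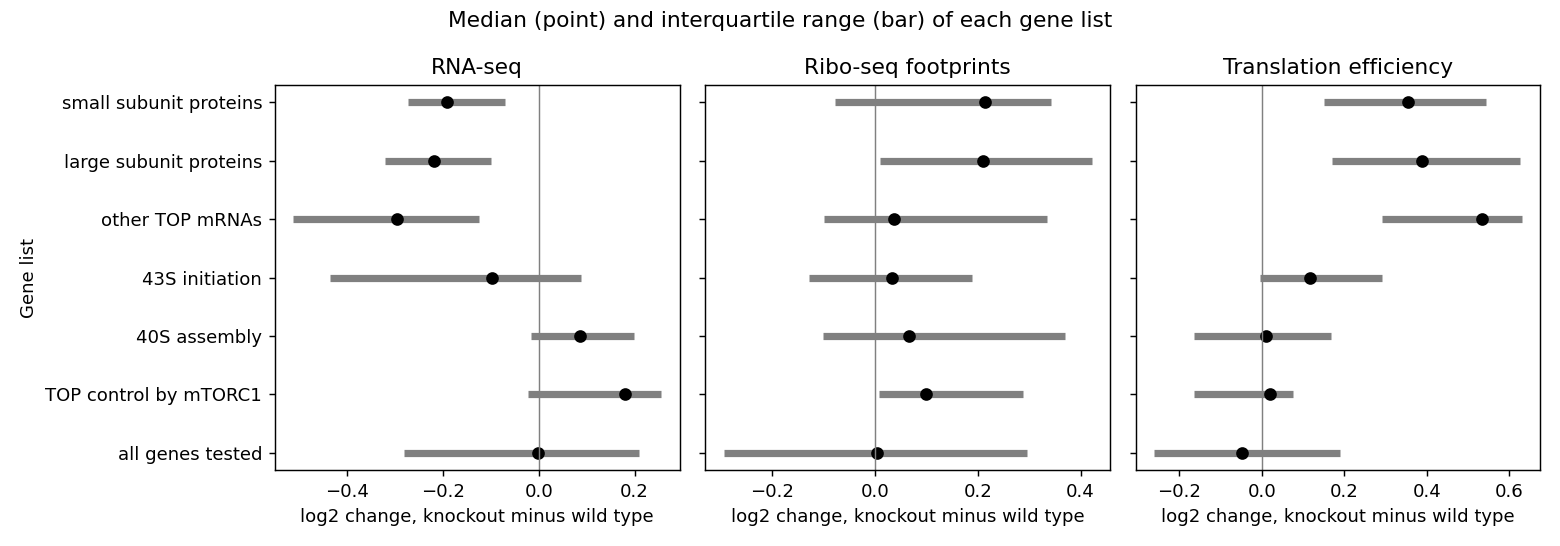
Median (point) and interquartile range (bar) of the log2 change, knockout minus wild type, of each gene list in RNA, footprints and translation efficiency. Small subunit, large subunit and other TOP mRNAs have efficiency medians of 0.35, 0.39 and 0.53, against -0.05 over all genes tested.

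Of the 35 genes 8 could not be tested in footprints, because both genotypes had almost none. RPS28, a head protein at the mRNA exit, had 1 and 1 footprints in knockout, against 1 and 0 in wild type, at an RNA level of 349 and 349 CPM in knockout, against 352 and 441 CPM in wild type. RPS3A had 9 and 3 footprints in knockout, against 3 and 2 in wild type, with 327 and 329 CPM of RNA in knockout, against 331 and 418 CPM in wild type. RPS27 had 21 and 2 footprints in knockout, against 11 and 6 in wild type. RPS26 had 0 and 1 footprints in knockout and none in wild type, and RPS10 had 1 and 1 in knockout and none in wild type. The RNA of RPS10 was itself low, at 12.1 and 10.3 CPM in knockout, against 10.2 and 11.2 CPM in wild type. RPS10-NUDT3 had none in any library and RPS27AP5 1 in all. The low counts appeared in both genotypes.

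Genes with many processed copies in the genome tended to have fewer footprints per RNA read. Processed copies share most of their sequence with the parent gene, and a short read may match several of them. The gene table names 74 copies of RPSA, 53 of RPS3A, 36 of RPS26, 32 of RPS29 and 30 of RPS27. The ratio of footprint CPM to RNA CPM was 0.0191 for RPS3A in knockout, against 0.00621 in wild type, and 3.43 for FAU (3 copies) in knockout, against 2.80 in wild type. Over the 33 protein genes, the rank correlation of copies with this ratio was -0.52 in knockout and -0.58 in wild type. The genes share libraries and the ratio takes no account of coding length, so this is a description, and the part of shared reads in it was not tested. RPS29 had 985 and 1220 CPM of footprints in knockout, against 1207 and 1089 CPM in wild type despite its 32 copies, and RPS28 had almost none with 5. The sources used here do not say how reads with several matches were counted. Where the counting did not use strand, RPS25, RPS27A, RPS28 and RPS29 also share reads with overlapping genes in the RefSeq table. RPS10 lies within its readthrough RPS10-NUDT3, so these genes can share reads whatever the strand setting.

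**Figure D4:**
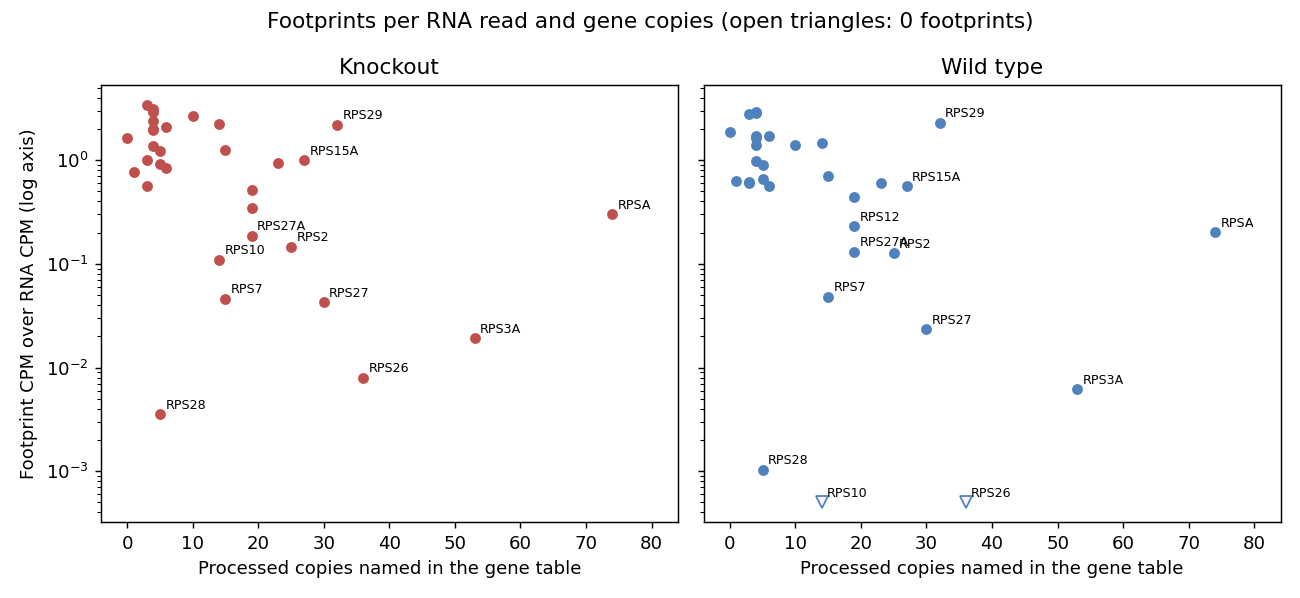
Footprint CPM divided by RNA CPM (log axis, means over the 2 libraries of a genotype) against the number of processed copies the gene table names, for the protein genes in knockout (left) and wild type (right). RPS28, RPS26, RPS3A and RPS27 lie lowest in knockout, RPS28, RPS3A and RPS27 lie lowest above 0 in wild type, and the open triangles mark RPS10 and RPS26, which had 0 footprints in wild type.

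Each gene that changed in RNA was set beside the 10 tested protein-coding genes on either side of it in the RefSeq gene order. RPS6 lies on chromosome 9 between DENND4C (-0.96) and ACER2 (-1.14), and of its 20 neighbours 14 were below 0, 8 fell and 2 rose, with a median RNA log2 fold change of -0.44. RPS13 lies on chromosome 11, the chromosome of NAT10, between PLEKHA7 (-1.30) and PIK3C2A (-0.36), and of its neighbours 17 were below 0, 10 fell and 1 rose, with a median of -0.42. RPS9 on chromosome 19 had 12 of 20 neighbours below 0, of which 5 fell, with a median of -0.13. It lies between TSEN34 (-0.11) and LILRB2 (-2.72), the lowest of its 20 neighbours. RPS27L on chromosome 15 had 10 of 20 below 0, 2 higher and 2 lower by the test, with a median of -0.04. Over all genes 8.79% fell. The part of the chromosome segment in the changes of RPS6 and RPS13 was not tested.

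Peaks of ac4C immunoprecipitation lay on 34 of the 35 genes in both genotypes, and so did peaks of IgG. The share of all genes with a peak was not counted. RPS27AP5 had none in any list. In knockout cells, 340 of 361 peak regions of the antibody on these transcripts overlapped an IgG region of the same transcript by at least 1 base (94.2%), against 79.6% of all antibody regions. In wild type cells it was 277 of 279 (99.3%), against 93.3% of all. The authors called the peaks on transcript sequences from merged replicates, so isoforms of a gene share reads and no spread between replicates can be given. Different lists also differ in how many peaks they hold, so their sizes are not compared between genotypes.

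Within each list the small subunit genes stood among the strongest peaks by the authors' fold over input. The antibody list of the knockout had a median fold of 28.7 at their summits, against 4.69 at all summits, and its IgG list 29.6 against 4.98. The antibody list of wild type had 96.5 against 3.86, and its IgG list 92.8 against 3.86. A peak among the top 1% of its list was present in 30 genes of the antibody list and 27 of the IgG list in knockout, and in 33 genes of each list in wild type. The share of all genes with such a peak was not counted, and most of these genes had several summits. RPS12 had the highest fold in all 4 lists, and RPS27L the lowest. RPS27L had a top fold of 18.9 in the antibody list and 17.2 in the IgG list of knockout, and 29.9 and 30.8 in those of wild type.

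The regions covered most of the transcript in most genes. Of each gene, 1 protein-coding transcript with a peak in all 4 lists was taken, the one with the highest antibody fold in knockout. The median share covered was 92.9% by the antibody and 92.7% by IgG in knockout, and 98.0% by each in wild type. On the transcript of RPS6 the antibody regions covered 59.5% and the IgG regions 59.5% in knockout, and 61.9% and 65.2% in wild type. On that of RPS23 the shares were 15.0% and 15.0% in knockout, against 18.1% and 19.1% in wild type, all near its 5′ end. That transcript has 3252 bases, against a median of 1019 for the gene's protein-coding transcripts with peaks, and its regions ended by base 624. The transcript of RPS6 has 1369 bases, and its regions ended by base 893. The share covered and the position thus depend on the length of the transcript taken. Antibody and IgG regions differed mostly at their edges on the transcripts plotted. Of all antibody regions on these genes, 21 of 361 in knockout and 2 of 279 in wild type overlapped no IgG region. The overlapping shares were thus 94.2% and 99.3%, against 79.6% and 93.3% of the antibody regions of all genes.

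**Figure D5:**
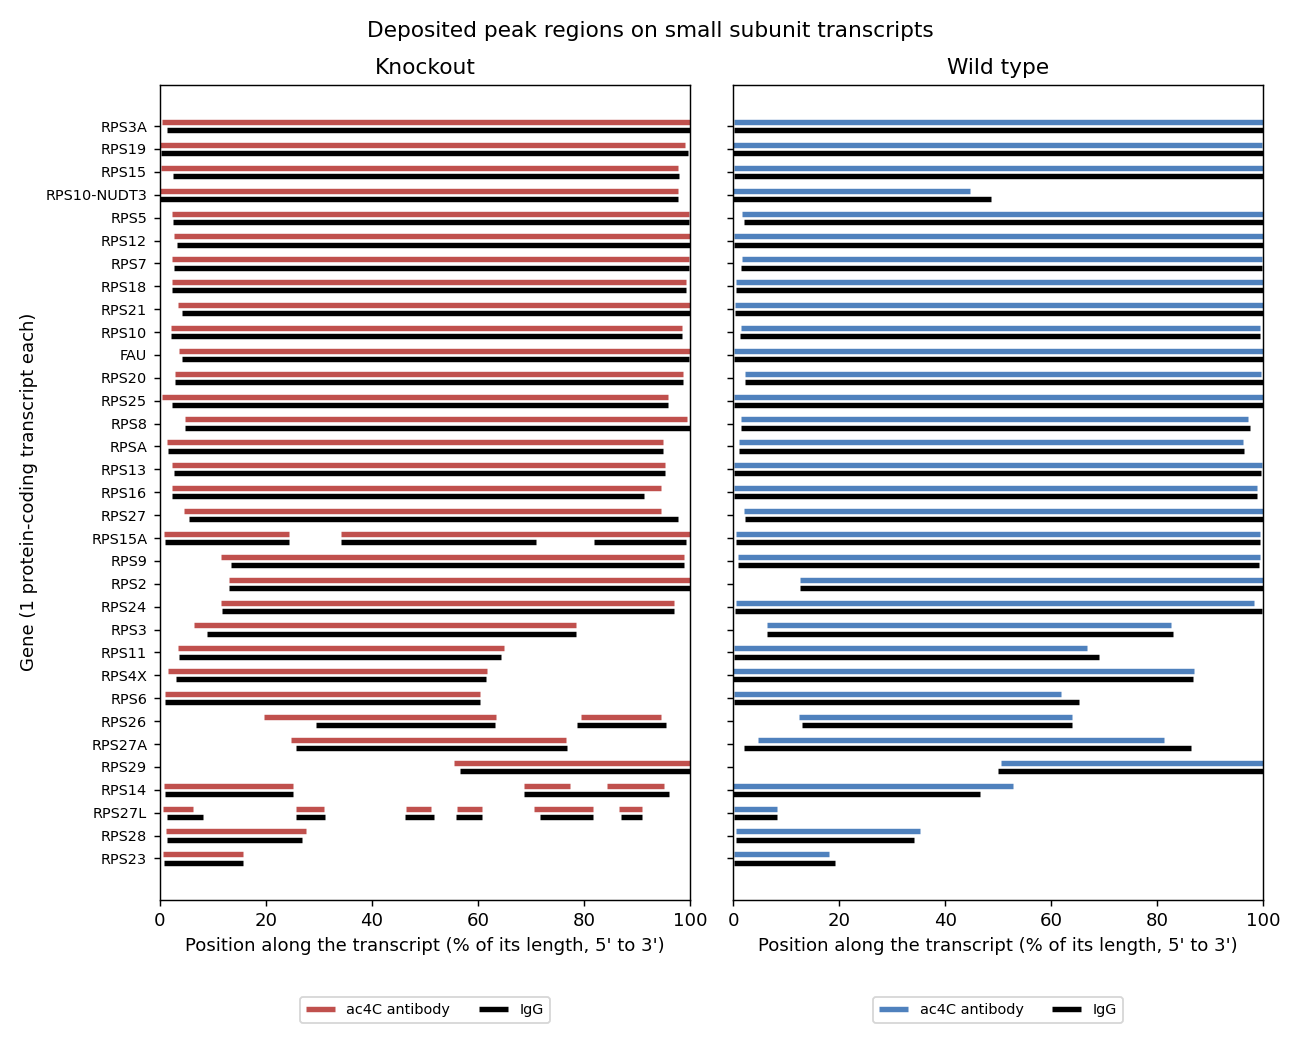
Position of the deposited peak regions along 1 protein-coding transcript of each gene drawn, from the 5′ end (0%) to the 3′ end (100%), in knockout (left) and wild type (right). Coloured lines are regions of the ac4C antibody and black lines those of IgG, and over all 34 genes with peaks the median share covered was 92.9% and 92.7% in knockout, against 98.0% each in wild type.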

How the data were processed

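RNA-seq and Ribo-seq counts of reads per gene were deposited as whole numbers, made from alignments with duplicate reads removed, per the file headers. No molecular identifiers are named, so this removal can shrink the counts of short, abundant mRNAs. Tools named without roles in the submitters' processing notes include STAR, featureCounts, Bowtie2 and MACS2, with the build GRCh38.p13. Neither the strand setting nor the handling of reads with several matches is given there. Ribo-seq cells were treated with cycloheximide and fractions taken from sucrose gradients, per the labels' protocols. The deposited peak lists give MACS2's fold enrichment (a ratio over input), −log10 q values and an integer score per peak, on transcript sequences with replicates merged.

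Symbols came from the reference name table for 60419 of 60616 RNA and 20352 of 20401 Ribo-seq identifiers. Pseudoautosomal Y copies (44 and 18 identifiers) were dropped. Tests used edgeR 4.0.16 (R 4.3.3; TMM, filterByExpr, quasi-likelihood F test, Benjamini-Hochberg adjustment over all genes tested, threshold 0.05). The summed knockout RNA sample left 1 residual degree of freedom, and it was assumed to vary like wild type. The biological coefficient of variation was 9.12% in RNA, 12.0% in footprints and 7.13% in the joint model. Translation efficiency used genes that passed the filter in each assay, a choice made after a first fit with a joint filter gave unstable values for genes with hardly any footprints. Scripts were tested on simulated data. Tested alternatives were DESeq2 1.42.0, RLE scaling, no filter, knockout RNA libraries kept apart, a replicate block, each library left out, a −log10 q of at least 10 and 50% coverage for peak overlap.

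NAT10, every gene called, and RPS6, RPS19, RPS27, RPS27L, RPS27A, RPSA, FAU, RPS3 and RPS14 were named by rule, with up to 3 genes of lowest adjusted p from each other list. The large subunit, other TOP, initiation, assembly and mTORC1 lists, like the genes themselves, were chosen with earlier results of these data known. Promoter starts came from RefSeq, for 26 of 35 genes. A gene of the set enters the counts and medians but is not reported here by name or drawn in the plots.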

Additional observations from a re-analysis of the deposited data

How the results depend on the processing

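The number of small subunit genes called in RNA, 4 in the fit reported, was 17 with the knockout libraries kept apart (34.1% of all genes). Without a filter on low counts, 6 were called in RNA (9.51% of all genes), 5 in footprints (6.51%) and 2 in efficiency (0.405%), against 4, 3 and 0 as reported. In efficiency DESeq2 called 3 (0.136% of all genes), and so did edgeR with the knockout RNA libraries kept apart (0.193%), where the median was 0.47. That setting also moved the efficiency median of all genes to 0.07, against -0.05 as reported. As single libraries were left out, the number called moved in footprints, as did the share of all genes called. In efficiency the number of small subunit genes called moved only without wild type Ribo-seq replicate 1. Over these fits the median lay between -0.301 and -0.0802 in RNA, between 0.08 and 0.33 in footprints and between 0.27 and 0.59 in efficiency. The efficiency median of all genes tested lay between -0.05 and 0.09 over the same fits. With 1 wild type RNA library left out no RNA test was possible, for want of residual degrees of freedom, so those are values only.

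Signs that turned belonged to genes not called in that measure in the fit reported. RPS19 in RNA was 0.0045 without a filter, and RPS27A was 0.0486 and RPSA 0.0202 without wild type replicate 2. As libraries were left out, RPS27A lay between -0.53 (without knockout replicate 1) and 0.845 in footprints, RPS14 between -0.235 and 0.0848 (without knockout replicate 1), and RPS27L between -0.0726 (without wild type replicate 2) and 0.628. In efficiency, RPS27A lay between -0.32 (without knockout Ribo-seq replicate 1) and 1.07, and RPS27L between -0.43 and 0.28 (without wild type Ribo-seq replicate 1). The causes were not tested. The RNA calls of RPS6, RPS13 and RPS9 and the footprint calls of RPS19, RPS23 and RPS13 held under RLE scaling, DESeq2 and no filter.

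With the replicate number as a block, 12 genes were called in footprints (10 higher, 2 lower), against 17.9% of all genes, and among them were RPS6 (-0.40, edgeR adjusted p = 0.00125) and FAU (0.30, adjusted p = 0.0142). In RNA and efficiency a block also needs the knockout RNA libraries kept apart. It then called 17 in RNA, against 31.1% of all genes, and 3 in efficiency, with an efficiency median of 0.47, the counts that keeping them apart gave without the block. The numbers do not pair the libraries by any label, and same-numbered libraries deviated together with r = -0.02 in RNA and 0.23 in footprints. At 621287 to 1220308 footprints per library, 8 of the 35 genes had too few to be tested, and the cause was not tested. The number of genes with a peak stayed at 34 in each list at a −log10 q of at least 10. At that minimum the overlap was 95.6% in knockout, against 78.5% of all antibody regions, and 99.3% in wild type, against 93.6% of all. At 50% coverage it was 92.2% in knockout, against 74.9% of all, and 99.3% in wild type, against 91.9% of all.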
